A study of Mus musculus with 2 samples.

Results

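Smooth muscle cells were picked cell by cell from 2 single-cell libraries of mouse lung mesenchyme, and 604 of the 18351 cells that passed the quality limits qualified. A qualifying cell had at least 3 UMIs of Myh11, the smooth muscle myosin heavy chain, where a UMI (unique molecular identifier) stands for 1 captured transcript. It also had a UMI of at least 2 of 5 further genes, Actc1, Pcp4l1, Mcam, Itih4 and Lmod1. Cells with 3 or more detected genes out of 7 typical of myofibroblasts (Hhip, Aspn, Fgf18, Lgr6, P2ry14, Pappa2, Sbspon) were left out, as were cells with 3 or more out of 6 typical of pericytes (Higd1b, Cox4i2, Kcnj8, Ndufa4l2, Trpc6, Abcc9). The bleomycin library gave 321 such cells of 10001, a share of 3.21% (exact Clopper-Pearson 95% interval 2.87% to 3.57%). The saline library gave 283 of 8350, a share of 3.39% (3.01% to 3.80%). The intervals of the shares overlapped.

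One library came from lungs treated with bleomycin, a drug that injures the lung and leads to fibrosis, and the other from lungs treated with saline. In both, the mice were 8 to 10 weeks old with the genotype Lepr-CreERT2;Rosa26-tdTomato. Both carry a tamoxifen-dependent Cre recombinase made from the leptin receptor gene and a Cre-activated red fluorescent reporter, so that a cell which once used the Lepr gene stays red. Sorting took live red cells negative for CD45 (leukocytes), EpCAM (epithelium) and CD31 (endothelium), so the smooth muscle cells described here are those of the Lepr-Cre lineage and not all of the lung's smooth muscle. How many mice made up a library, and the dose, day of collection and tamoxifen schedule, were not given in the sources used here. With 1 library per treatment, no comparison of treatments can be tested, and all intervals below cover counting error only.

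Smooth muscle cells wrap the airways and the blood vessels of the lung and set their width by contracting. Contraction runs on thin filaments of smooth muscle actin with tropomyosin and calponin, pulled by smooth muscle myosin once calcium-activated kinase has phosphorylated its light chain. Many of these genes are switched on by serum response factor (Srf) with its partner myocardin (Myocd) at a short DNA element, the CArG box. After injury smooth muscle cells are known to be able to lower their contractile genes and to make more matrix, a shift called phenotypic modulation.

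The promoters of 4 genes are shown because these genes carry the contractile results below, and because each holds the element through which such genes are known to be controlled. The windows are the 250 bases before the RefSeq transcription start on the mouse build GRCm38.p6, written along the gene's own strand. Capitals mark CArG boxes, searched on both strands as 2 cytosines, then 6 bases of adenine or thymine, then 2 guanines, with up to 1 of the 6 inner bases allowed to be another base. Acta2, smooth muscle alpha-actin, lies on the minus strand with its window at chr19:34255374-34255623. Actc1, cardiac alpha-actin, which also serves in lung smooth muscle, lies on the minus strand with its window at chr2:114052876-114053125. Myl9, a regulatory light chain of myosin, lies on the plus strand with its window at chr2:156775214-156775463. Vcl, vinculin, which anchors filaments at the membrane, lies on the plus strand with its window at chr14:20929148-20929397.
Acta2: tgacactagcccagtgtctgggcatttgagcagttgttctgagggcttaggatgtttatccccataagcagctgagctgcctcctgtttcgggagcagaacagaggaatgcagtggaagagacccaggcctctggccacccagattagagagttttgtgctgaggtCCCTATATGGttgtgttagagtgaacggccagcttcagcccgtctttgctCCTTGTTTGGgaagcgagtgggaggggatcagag
Actc1: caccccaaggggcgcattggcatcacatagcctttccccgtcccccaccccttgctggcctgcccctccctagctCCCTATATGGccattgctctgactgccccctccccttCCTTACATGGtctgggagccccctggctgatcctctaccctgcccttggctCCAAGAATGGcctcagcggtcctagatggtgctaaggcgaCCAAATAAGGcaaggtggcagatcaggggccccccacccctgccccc
Myl9: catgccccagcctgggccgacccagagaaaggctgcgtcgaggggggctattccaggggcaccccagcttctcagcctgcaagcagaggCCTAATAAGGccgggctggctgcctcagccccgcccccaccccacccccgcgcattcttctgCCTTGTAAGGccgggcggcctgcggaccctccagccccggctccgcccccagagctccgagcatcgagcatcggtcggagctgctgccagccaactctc
Vcl: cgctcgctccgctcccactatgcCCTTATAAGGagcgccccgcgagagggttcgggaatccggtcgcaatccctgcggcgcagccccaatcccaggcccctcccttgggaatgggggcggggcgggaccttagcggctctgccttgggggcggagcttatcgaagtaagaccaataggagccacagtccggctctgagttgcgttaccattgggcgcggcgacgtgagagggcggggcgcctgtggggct

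The Actc1 window held 4 boxes, of which the one nearest to the start, CCAAATAAGG, had adenine or thymine at each of the 6 inner bases. The Acta2 window held 2 boxes, both with 1 base off. A box of that strict kind was found in the windows of 3 of 17 matched thin filament genes (17.6%: Filip1l, Ldb3 and Vcl) and of 2 of 13 matched myosin and light chain genes (15.4%: Myl6 and Myl9). Among all 27025 genes with a window the share was 1.62%. With 1 base off allowed, 29.4% of the matched thin filament genes held a box, against 9.78% of all genes. Genes of the fibrillar matrix held none of the strict kind in 17 matched windows, and 17.6% held one with 1 base off allowed. A match is a stretch of letters and says nothing about binding in these cells.

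The bleomycin library held 10138 barcodes with 134732429 UMIs and the saline library 8396 barcodes with 60937359 UMIs. The difference in depth was small among the smooth muscle cells, whose median was 7915 UMIs in the bleomycin library and 7591 in the saline library, against medians of 11886 and 6743 for all other filtered cells of the same libraries. The smooth muscle cells summed to 3138451 UMIs after bleomycin and 2393920 after saline, and their median mitochondrial share was 2.35% and 2.72%. The libraries shared 25 barcodes, none of them of a smooth muscle cell. The doublet caller marked 0 bleomycin cells and 66 saline cells (0.790%), of which 12 were smooth muscle cells, so it failed in the bleomycin library, and doublets were kept in both.

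The genes that chose the cells are given as a description only. Levels are CPM, the UMIs of a gene per 1000000 UMIs summed over a class of cells. Myh11 stood at 1606 CPM in the smooth muscle cells of the bleomycin library and 2782 CPM in those of the saline library, against 74.8 and 56.2 CPM in all other cells. Per cell the Myh11 count ran from 3 through a median of 11 to 133 after bleomycin, and from 3 through a median of 20 to 83 after saline. Actc1 stood at 1393 CPM after bleomycin and 2854 CPM after saline, a ratio of 0.488. Lmod1, leiomodin, which seeds actin filaments, stood at 242 and 348 CPM. Pcp4l1 was at 291 and 317 CPM, Mcam, an adhesion molecule, at 283 and 277 CPM, and Itih4, a secreted protein of the inter-alpha-trypsin inhibitor family, at 238 and 240 CPM. Among the 5 further genes, Mcam was detected in the most cells after bleomycin (85.0%), Actc1 in the most after saline (90.8%), and Itih4 in the fewest in either library (44.9% after bleomycin, 46.3% after saline). All 5 were detected in 74 bleomycin cells (23.1%) and 97 saline cells (34.3%).

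Few cells lay at the Myh11 limit. In the bleomycin library 865 cells reached 3 UMIs of Myh11 and 668 of these also had 2 of the 5 further genes, after which the myofibroblast genes removed 231, the pericyte genes 63 and both sets 53. In the saline library 454 and 397 cells remained at these steps, and 80, 31 and 3 were removed. Just inside the limit, 18 bleomycin cells with exactly 3 UMIs of Myh11 had 4902 CPM of Acta2 and 1730 CPM of Col1a1, a fibrillar collagen chain. Just outside, 6 bleomycin cells with 2 UMIs that met the rest of the rule had 3487 CPM of Acta2 and 12122 CPM of Col1a1. In the saline library 6 cells with 3 UMIs had 15789 CPM of Acta2 and 301 CPM of Col1a1, and 8 cells with 2 UMIs had 6202 and 705 CPM. The bleomycin cells at the edge of the class thus held less Acta2 and more Col1a1 than the saline cells at the edge.

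Smooth muscle markers that the rule did not read were high in these cells, and the label held up against them. Acta2 stood at 12250 CPM in bleomycin smooth muscle cells and 1177 CPM in the other bleomycin cells, and at 20682 CPM in saline smooth muscle cells and 531 CPM in the other saline cells. Its excess over the other cells was 10.4-fold after bleomycin and 39.0-fold after saline. Cnn1, calponin, an actin-binding brake on myosin, was 10.6-fold and 42.1-fold above the other cells, and Actg2, the enteric smooth muscle actin, 7.35-fold and 42.2-fold. Synpo2, an actin-bundling protein, was 14.7-fold and 35.0-fold above, Kcnmb1, the beta subunit of the large calcium-activated potassium channel, 14.6-fold and 44.9-fold, and Ldb3, a Z-disc protein, 21.1-fold and 35.9-fold. Mylk, the myosin light chain kinase, had the smallest excess of the 10 markers, 2.89-fold and 2.36-fold. All 10 were at least 2-fold above the other cells in each library, where 7.56% of measured genes were called higher in smooth muscle cells after bleomycin and 9.69% after saline, and 8.52% and 13.2% lower. Since the cells were chosen on smooth muscle genes, this difference is a description. For Acta2 the smaller excess in the bleomycin library went with a higher level in its other cells as well as a lower one in its smooth muscle cells. The excess of Mylk was the larger one after bleomycin.

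Myofibroblast-gene cells, those with 3 or more of the 7 myofibroblast genes and fewer than 3 of the pericyte genes, numbered 757 after bleomycin and 361 after saline, and were closest in markers. Their Acta2 stood at 4729 CPM after bleomycin and 6725 CPM after saline. Cnn1 stood at 724 CPM in bleomycin smooth muscle cells and 718 CPM in bleomycin myofibroblast-gene cells, and at 1172 and 660 CPM in the saline cells. Des, desmin, the muscle intermediate filament, was at 1226 CPM in bleomycin smooth muscle cells and 1326 CPM in bleomycin myofibroblast-gene cells, and at 1387 and 1270 CPM in the saline ones. Acta2 thus differed more between both kinds of cell than Des did. Pericyte-gene cells (251 after bleomycin, 127 after saline) had 2702 and 3587 CPM of Acta2.

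**Figure D1:**
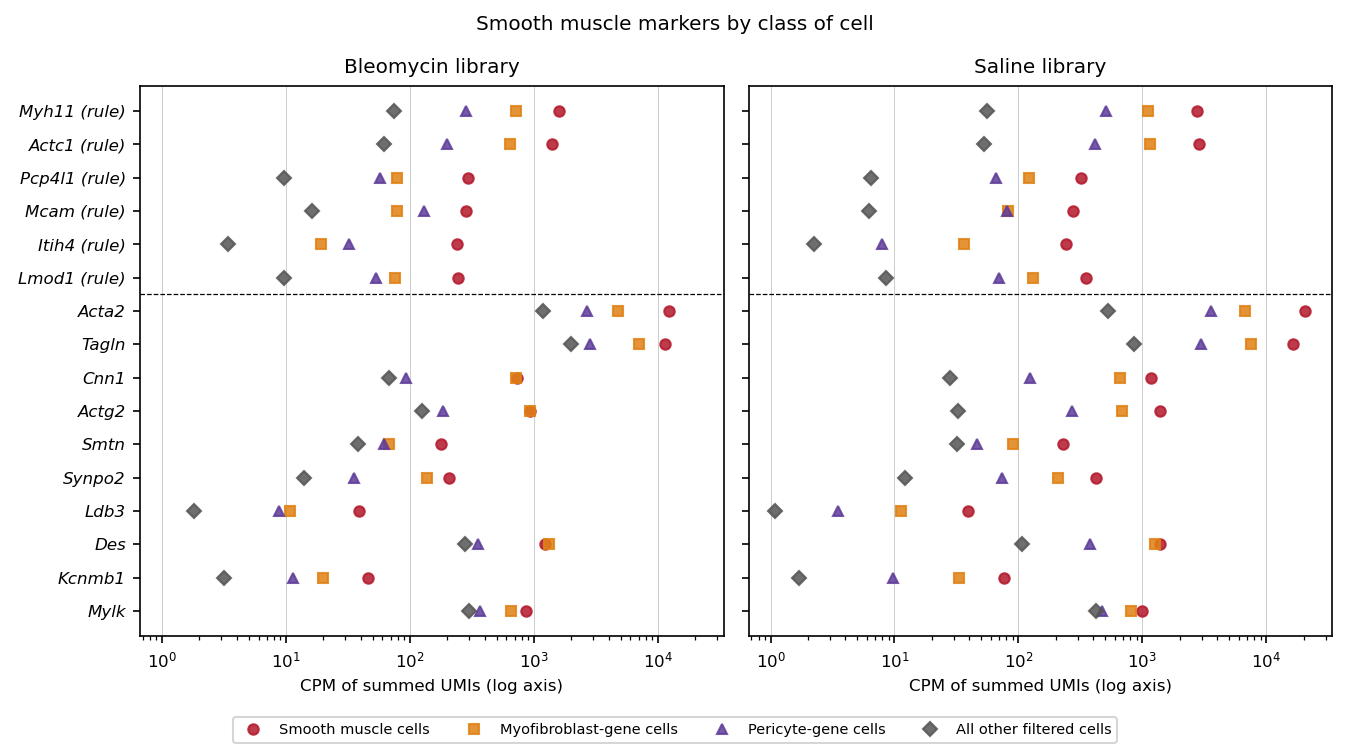
CPM of summed UMIs (log axis) for the 6 genes of the rule, above the dashed line, and 10 smooth muscle markers it did not use, in smooth muscle cells (circles), myofibroblast-gene cells (squares), pericyte-gene cells (triangles) and all other filtered cells (diamonds), with the bleomycin library left and the saline library right. Acta2 stood at 12250 CPM in bleomycin and 20682 CPM in saline smooth muscle cells, and Cnn1, Actg2 and Des of bleomycin smooth muscle cells lay on top of the myofibroblast-gene cells.

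Beyond the fixed markers, the 20 genes with the largest excess over other cells among those at 50 CPM or more in both libraries held the 6 smooth muscle genes of the rule and a set of sarcomere and signalling genes. Timp4, an inhibitor of matrix proteases, stood at 71.7 CPM after bleomycin and 69.8 CPM after saline, 34.8-fold and 46.9-fold above the other cells. Tcap, known as a titin cap in striated muscle, stood at 230 and 181 CPM (34.0-fold and 34.7-fold above). Myom1, a myomesin of the striated M-band, stood at 115 and 131 CPM (27.6-fold and 38.6-fold above). Aoc3, a vascular amine oxidase, stood at 123 and 164 CPM (31.2-fold and 52.5-fold above), and Ramp1, a subunit of the receptor for the vasodilator CGRP, at 381 and 483 CPM (17.4-fold and 60.7-fold above). Of the 14 leading genes that the rule did not read, Sh3bgr (227 CPM after bleomycin, 494 CPM after saline) and Sncg (369 and 147 CPM) met the size rule given below between treatments. Myofibroblast-gene cells held some of these genes too, with Tcap at 65.1 CPM after bleomycin and 96.8 CPM after saline. Myom1 stood there at 33.9 and 45.6 CPM, Ramp1 at 99.7 and 137 CPM, Aoc3 at 16.0 and 33.8 CPM, and Timp4 at 5.31 and 16.9 CPM. Sncg stood there at 103 and 161 CPM, in saline above the smooth muscle cells. Of 12 genes of cardiac muscle, which sheathes pulmonary veins in the mouse, 4 had 0 UMIs in bleomycin smooth muscle cells and 7 in saline ones. Myh6, Tnni3, Mybpc3 and Csrp3 had 0 UMIs in both libraries, 2 genes of the list reached 10 CPM, and no smooth muscle cell had 3 of the 12 at 2000 UMIs. Tnnt2, cardiac troponin T, was present at 225 CPM after bleomycin and 162 CPM after saline. The list was not particular to smooth muscle cells, where it summed to 263 and 190 CPM, against 306 and 303 CPM in myofibroblast-gene cells.

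Genes that lean towards vascular and towards airway muscle were both present. At a common depth of 2000 UMIs per cell, which 315 bleomycin and 278 saline smooth muscle cells reached, 3 or more of 14 vascular-leaning genes were detected in 126 bleomycin cells (40.0%) and 111 saline cells (39.9%), against 1.69% and 0.922% of the other cells. Of 12 airway-leaning genes, 3 or more were detected in 85 bleomycin cells (27.0%, 22.2% to 32.2%) and 89 saline cells (32.0%, 26.6% to 37.8%), against 5.24% and 3.75% of the other cells. Each smooth muscle share differed between the libraries by less than counting error. The airway list summed to 2440 CPM after bleomycin and 3100 CPM after saline, below the 2821 and 3461 CPM of the myofibroblast-gene cells that the rule left out. The vascular list summed to 1179 and 1325 CPM, above the 335 and 460 CPM there. Of the airway list, Chrm3, the muscarinic receptor of airway muscle, was nearly absent at 0.319 CPM after bleomycin and 0 UMIs after saline, and the list also holds Actg2 and Des.

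Between treatments, a gene was called when its CPM in smooth muscle cells was at least 2-fold apart, reached 10 CPM in the higher library, and the exact 95% interval of its ratio lay clear of 1. Ratios are bleomycin over saline throughout, given in brackets after both levels and followed there by their 95% interval, and a gene is measured where it reached 10 CPM in either library. Of 8022 measured genes, with the 19 genes of the rule left out, 370 were higher after bleomycin (4.61%) and 231 lower (2.88%). Both shares are to be read beside each count from a gene list below. In all other cells 470 of 8066 were higher (5.83%) and 491 lower (6.09%). Of the smooth muscle calls, 163 higher genes (44.1% of the smooth muscle list, 34.7% of the other cells' list) and 71 lower genes (30.7% and 14.5%) were called in the same direction in the other cells. Myofibroblast-gene cells had 5.30% of genes higher and 6.0% lower, and pericyte-gene cells 3.77% and 4.74%. Of the called genes, 34 of the 370 higher genes stood at least 2-fold above the other cells in the bleomycin library, and 104 of the 231 lower genes in the saline library. Of all measured genes, 7.56% were called higher in smooth muscle cells than in the other cells after bleomycin and 9.69% after saline. Each direction was read in the library where its genes were high, so the change itself helps a gene to pass.

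Thin filament genes as a set stood lower after bleomycin, mostly by less than 2-fold. Acta2 (chromosome 19, 34241090 to 34255590 in mm10), whose promoter is printed above, stood at 12250 CPM in the bleomycin library and 20682 CPM in the saline library, a ratio of 0.592 (0.584 to 0.60). Per cell its quartiles were 6627, 11387 and 18433 CPM after bleomycin and 14326, 21284 and 27037 CPM after saline, so the bleomycin median lay below the saline lower quartile. Tagln, transgelin, which cross-links actin, was at 11420 and 16280 CPM, a ratio of 0.701, and Cnn1 at 724 and 1172 CPM, a ratio of 0.618. The beta-tropomyosin gene Tpm2 stood at 3749 and 5336 CPM, a ratio of 0.702. Vcl, whose promoter holds a strict CArG box, stood nearer to 1 at 287 and 331 CPM, a ratio of 0.869 (0.789 to 0.957). Synpo2 was the one of the 22 list genes that met the size rule, at 207 CPM after bleomycin and 424 CPM after saline, a ratio of 0.489 (0.442 to 0.540). At 2000 UMIs it was detected in 28.9% of bleomycin and 50.4% of saline smooth muscle cells, and in none of the background cells, epithelial-gene cells that should lack it. Ratios were below 1 for 21 of the 22 genes, with Tln1, talin, at 1.02, and 0 were called higher and 1 lower. The list's median log2 ratio was -0.32, against 0.06 over all measured genes.

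In all other cells pooled, 9 of 20 measured thin filament genes were higher, 0 lower, and the median log2 ratio was 0.72, with Acta2 at 1177 CPM after bleomycin and 531 CPM after saline. For the 2 most similar classes only the summed level of the list was read, to which its most abundant genes add most. No list median was taken there. The summed level was 39708 CPM after bleomycin and 58203 CPM after saline in smooth muscle cells, and 8067 and 4902 CPM in all other cells. It was 23074 and 25680 CPM in myofibroblast-gene cells, and 11282 and 12921 CPM in pericyte-gene cells. Thus the sum was below the saline level in smooth muscle, myofibroblast-gene and pericyte-gene cells, while single genes could differ from it. Csrp2, a LIM protein of smooth muscle, stood at 1300 and 1316 CPM in smooth muscle cells and was 3.75-fold higher after bleomycin in all other cells and 2.10-fold higher in myofibroblast-gene cells. The difference between both kinds of cell was not tested. The size of the shift in smooth muscle cells depended on the Myh11 limit. With at least 10 UMIs of Myh11 per cell the Acta2 ratio was 0.735, the list median -0.16, and Synpo2 no longer met the size rule at a ratio of 0.633. With the whole rule read at 2000 UMIs per cell the list median was -0.015 and Cnn1 turned to a log2 ratio of 0.37, while Acta2 stayed at -0.39.

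**Figure D2:**
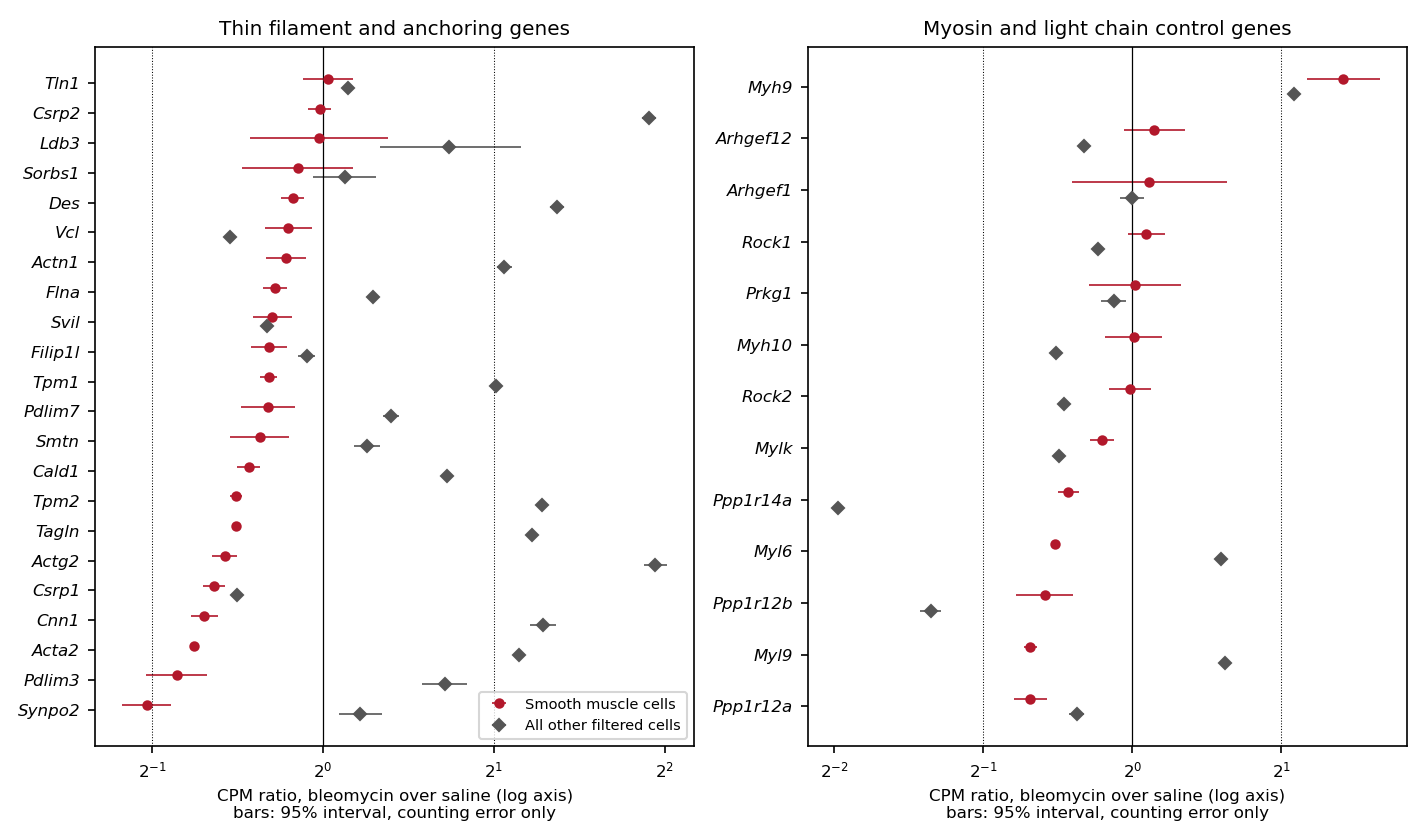
Ratio of CPM, bleomycin over saline (log axis), for 22 thin filament genes (left) and 13 of the 14 myosin and light chain genes (right) in smooth muscle cells (circles) and all other filtered cells (diamonds), with exact 95% intervals of counting error as bars and dotted lines at 2-fold. The smooth muscle circles of the left panel run from 0.489 for Synpo2 to 1.02 for Tln1, while the diamonds of Csrp2, Actg2 and Des lie past 2-fold on the other side.

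The myosin genes showed no common shift. Myl9, whose promoter is printed above, stood at 2198 CPM after bleomycin and 3529 CPM after saline, a ratio of 0.623 (0.603 to 0.643), and the essential light chain Myl6 at 5991 and 8590 CPM, a ratio of 0.697. Myh9, the non-muscle myosin heavy chain, was the one gene of 14 called, at 201 CPM after bleomycin and 75.6 CPM after saline, a ratio of 2.66 (2.25 to 3.16). Myh9 was also higher in the other cells, 2.12-fold. This 1 call in 14 genes stands beside 4.61% of all measured genes called higher. Of the kinase and phosphatase genes that set light chain phosphorylation, Mylk had a ratio of 0.870 and Ppp1r12a, the myosin phosphatase targeting subunit, 0.623, with 379 CPM after bleomycin and 609 CPM after saline.

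None of 13 measured transcription factor genes of smooth muscle met the size rule. Leaving out the smooth muscle cells that also held fibroblast genes, described below, 2 were higher and 0 lower. With at least 10 UMIs of Myh11 per cell, 0 were higher and 0 lower. Myocd stood at 71.7 CPM after bleomycin and 108 CPM after saline, a ratio of 0.663 (0.552 to 0.795), and Srf at 16.9 and 23.8 CPM, with an interval that crossed 1 (0.479 to 1.05). Gata6, which favours the contractile state in vessels, was at 68.2 and 134 CPM, a ratio of 0.509 (0.426 to 0.606), just inside the 2-fold limit. Klf4, known to oppose contractile genes in vascular muscle, stood at 784 and 497 CPM, a ratio of 1.58 (1.47 to 1.69), and was 1.29-fold apart in the other cells. Over the whole list, 9 of the 13 genes had ratios above 1 and 4 below, with a median log2 ratio of 0.26, so the list had no common direction.

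Of 16 measured genes of calcium handling and excitability, 1 was higher and 1 lower, a share near that of all measured genes (4.61% higher, 2.88% lower). Pln, phospholamban, the brake on the calcium pump of the sarcoplasmic reticulum, was higher at 38.6 CPM after bleomycin and 18.0 CPM after saline (2.15, 1.5 to 3.12), in 51 and 22 cells, and no longer met the size rule with at least 10 UMIs of Myh11 per cell (1.93). Kcnma1, the pore of the large calcium-activated potassium channel, was lower at 6.69 and 19.2 CPM (0.348, 0.197 to 0.595), and its partner Kcnmb1 stood at 45.9 and 76.0 CPM (0.604). The L-type calcium channel Cacna1c (70.4 and 68.1 CPM) and the calcium pump Atp2a2 (414 and 398 CPM) differed little. Ratios were above 1 for 8 of the 16 genes and below 1 for 8.

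Among 15 measured receptors and signal regulators of contraction and relaxation, 2 were higher and 3 lower, where all measured genes had 4.61% higher and 2.88% lower. With at least 10 UMIs of Myh11 per cell, 0 were higher and 1 lower, which was Rgs5 (0.133). Ednrb, the endothelin B receptor, was at 37.9 CPM after bleomycin and 84.4 CPM after saline (0.449, 0.355 to 0.566), while Ednra, the A receptor that drives contraction, stood at 95.6 and 66.4 CPM (1.44, 1.18 to 1.76). Thus the endothelin receptors stood on opposite sides of 1. Rgs5 and Rgs4, which shorten signals of Gq- and Gi-coupled receptors, were lower: Rgs5 at 10.5 CPM after bleomycin and 68.5 CPM after saline (0.153, 0.102 to 0.224), in 20 and 61 cells, and Rgs4 at 27.1 and 65.6 CPM (0.413). In all other cells pooled, Rgs5 stood at 1.46 and 1.40 CPM and Rgs4 at 3.80 and 2.12 CPM. Within these, Rgs5 was also lower in myofibroblast-gene cells, at 2.45 CPM after bleomycin and 20.2 CPM after saline (0.121), and Rgs4 was higher in pericyte-gene cells, at 30.5 and 6.18 CPM (4.94). Ptgir, the prostacyclin receptor, was higher at 12.7 and 5.43 CPM (2.35, 1.23 to 4.78). Npr3, the natriuretic peptide clearance receptor, was called higher at 24.2 and 10.4 CPM, but its ratio was 0.579 without the smooth muscle cells that also held fibroblast genes, described below. The nitric oxide pathway genes Gucy1a1 (212 and 265 CPM) and Pde5a (84.1 and 160 CPM) did not meet the rule. Neither did any of 7 measured Notch pathway genes, although the vascular receptor Notch3 stood at 144 CPM after bleomycin and 79.4 CPM after saline (1.81, 1.53 to 2.16). At 10 or more UMIs of Myh11 per cell, 1 of the 7 was higher and 0 lower, and without the cells holding fibroblast genes 0 were called.

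Of all lists, fibrillar and provisional matrix had the most called genes. Bleomycin smooth muscle cells had 16 of its 27 measured genes higher and 0 lower, where all measured genes had 4.61% higher and 2.88% lower. The median log2 ratio was 1.37, and count and median were the same in the other cells. Col1a1 stood at 1658 CPM after bleomycin and 333 CPM after saline (4.98, 4.62 to 5.37), in the other cells at 3779 and 970 CPM, and in background cells at 427 and 30.9 CPM. Col3a1 was at 1849 and 717 CPM (2.58), fibronectin (Fn1) at 1540 and 301 CPM (5.11), and tenascin C (Tnc), a matrix protein of healing tissue, at 253 and 52.2 CPM (4.85). Timp1, an inhibitor of matrix proteases, was at 947 and 71.0 CPM (13.3, 11.4 to 15.7), in 241 and 69 cells. Postn, periostin, broke with the rest: smooth muscle cells held it at 338 CPM after bleomycin and 320 CPM after saline, a ratio of 1.06 (0.961 to 1.16), while the other cells held 190 and 14.7 CPM. Ccn2, connective tissue growth factor, stood at 1147 and 1893 CPM, a ratio of 0.606.

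Elastic fibre genes were a second block, with 7 of 16 higher and 1 lower, where all measured genes had 4.61% higher and 2.88% lower. Eln, elastin (chromosome 5, 134702593 to 134747323), stood at 2303 CPM after bleomycin and 555 CPM after saline (4.15, 3.91 to 4.40), with UMIs in 276 and 211 cells. In the other cells it stood at 4112 and 762 CPM, and in background cells at 812 and 39.7 CPM. Ltbp2, which binds fibrillin, was at 263 and 12.1 CPM (21.7), Fbln2, fibulin 2, at 78.1 and 5.43 CPM (14.4), and the cross-linking enzymes Lox and Loxl2 were 2.55-fold and 2.67-fold higher. Fbln5, fibulin 5, which guides elastin assembly, was the exception at 74.6 CPM after bleomycin and 155 CPM after saline (0.482, 0.408 to 0.570), and was lower in the other cells too (0.352). Its level in background cells was above that in smooth muscle cells, at 161 and 327 CPM.

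In the basement membrane and adhesion list, 2 of 18 measured genes were higher and 1 lower, where all measured genes had 4.61% higher and 2.88% lower. With at least 10 UMIs of Myh11 per cell, 0 were higher and 0 lower, and without the cells holding fibroblast genes 2 were higher and 0 lower. Lamb1, a laminin chain, stood at 82.5 CPM after bleomycin and 27.2 CPM after saline (3.04, 2.31 to 4.05), and Nid1, nidogen, at 89.9 and 38.8 CPM (2.31). Itga8, the integrin partner of nephronectin, was lower at 390 and 805 CPM (0.484, 0.450 to 0.521), and lower again in the other cells (0.270). Collagen IV and XVIII chains, the muscle cell's own sheath, were within 2-fold, with Col18a1 at 552 and 330 CPM (1.67).

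**Figure D3:**
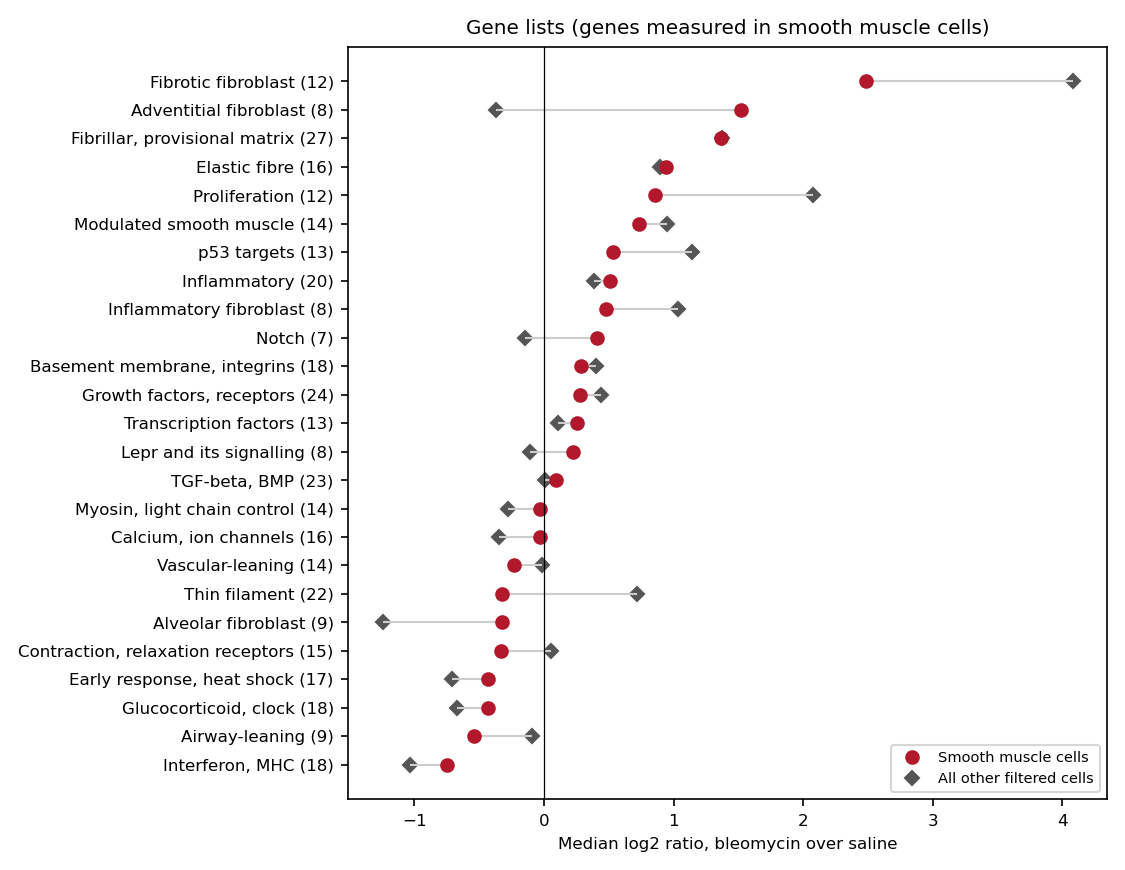
Median log2 ratio, bleomycin over saline, of 25 gene lists in smooth muscle cells (circles) and all other filtered cells (diamonds), with the number of genes measured in smooth muscle cells in brackets. The fibrotic fibroblast list is highest in both kinds of cell (2.48 and 4.08), fibrillar matrix coincides at 1.37, and the thin filament list lies at -0.32 in smooth muscle cells and 0.72 in the other cells.

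Most UMIs of Col1a1, Spp1, Cthrc1 and Timp1 in bleomycin smooth muscle cells sat in a minority of the cells. At 2000 UMIs, 96 of 315 bleomycin smooth muscle cells (30.5%, 25.4% to 35.9%) and 17 of 278 saline ones (6.12%, 3.60% to 9.61%) had 3 or more of 12 genes typical of fibrotic fibroblasts, against 57.6% and 4.23% of the other cells. The 96 cells held 40.2% of the UMIs of bleomycin smooth muscle cells. They held 76.7% of the Col1a1 UMIs, 95.9% of those of Spp1 and 98.2% of those of Cthrc1, which are on that list, and 80.6% of those of Timp1, which is not. The shares of the listed genes are thus partly set by the choice of cells. No such share was taken for matrix genes off the list other than Timp1. Acta2 stood at 9005 CPM in the 96 and 14430 CPM in the rest, and Myh11 at 993 and 2017 CPM. Spp1 and Cthrc1 in the rest, at 83.1 and 3.20 CPM, were below the 165 and 20.2 CPM of the background cells, and Timp1 in the rest, at 308 CPM, was above the 204 CPM there. These cells carried smooth muscle and fibroblast transcripts under 1 barcode. Of the smooth muscle cells, 27 bleomycin (8.41%) and 25 saline cells (8.83%) were among the 5% of each library with the highest doublet scores. Without these 5% the log2 ratio of Col1a1 was 2.32 and that of the thin filament list -0.32. Since the doublet caller failed in the bleomycin library, 2 cells in 1 droplet and 1 cell with both sets of genes cannot be told apart.

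Without all smooth muscle cells that held 3 or more genes of the fibrotic, alveolar or adventitial fibroblast list, which left 200 bleomycin and 229 saline cells, part of the matrix block remained. Of 25 matrix genes then measured, 7 were higher and 1 lower, and of 16 elastic fibre genes 5 were higher. Col1a1 no longer met the size rule (1.71), nor did Col3a1 (1.48), whereas Eln (2.90), Ltbp2 (14.7), Fbln2 (11.9), Fn1 (2.39), Tnc (2.49) and Timp1 (5.62) did. Col1a1, Ltbp2 and Tnc are on the fibrotic list, so a fall in their ratios is partly set by the choice of cells. Col3a1, Eln, Fbln2, Fn1 and Timp1 are on none of these lists. Ccn2 became the lower gene at 0.492. In the same cells Acta2 had a ratio of 0.665 and 19 of 22 thin filament genes were below 1, and Myh9 fell short of the rule at 1.71.

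**Figure D4:**
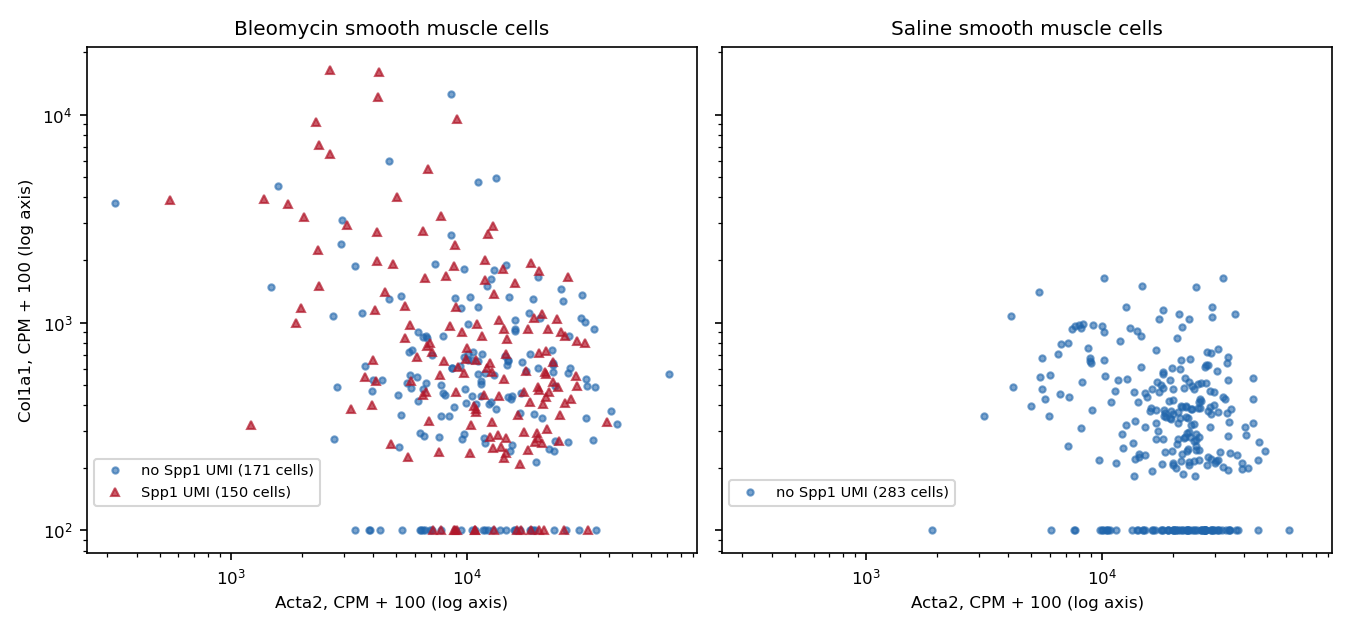
Each point is 1 smooth muscle cell, with its Acta2 level on the horizontal and its Col1a1 level on the vertical axis (CPM + 100, log axes), in the bleomycin library (left, 321 cells) and the saline library (right, 283 cells). Triangles are cells with an Spp1 UMI, 150 after bleomycin and 0 after saline, and the cells of high Col1a1 and low Acta2 at the upper left are in the bleomycin panel.

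Of 14 measured genes linked to the modulated state, 4 were higher and 0 lower (median log2 ratio 0.74), where all measured genes had 4.61% higher and 2.88% lower. Leaving out the cells holding fibroblast genes, 2 of 12 measured genes were higher and 0 lower. The same counts were found with at least 10 UMIs of Myh11 per cell. Spp1, osteopontin, a secreted matrix protein of injured tissue, had 1211 CPM after bleomycin and no UMI after saline, and was at least 967-fold higher against a floor of 3 UMIs in the saline sum. Its UMIs were very uneven: 1 cell held 59.5% and 5 cells held 91.0% of them. At 2000 UMIs 19% (14.9% to 23.8%) of bleomycin smooth muscle cells had an Spp1 UMI, against 16.0% of the background cells. The summed level in bleomycin background cells was 165 CPM, and the part of free RNA in the smooth muscle values was not tested. Lgals1, galectin 1, stood at 3583 CPM after bleomycin and 1919 CPM after saline (1.87), Mgp, matrix Gla protein, at 13701 and 8026 CPM (1.71), and S100a4 at 638 and 393 CPM (1.62), where the other cells had a ratio of 9.93. Vim, vimentin, stood at 4031 and 3969 CPM. These 4 abundant genes of the state were all within 2-fold.

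Growth factor and TGF-beta family genes were mixed. Fst, follistatin, an activin antagonist, was at 142 CPM after bleomycin and 6.27 CPM after saline (22.7, 13.6 to 41.0), but 3.36-fold higher without the cells holding fibroblast genes. Igf1 stood at 110 and 17.5 CPM (6.27), and its ratio was 1.30 without those cells. Sfrp1, a Wnt antagonist, stood at 88.9 and 5.01 CPM, with a ratio of 17.7 in all smooth muscle cells and 6.17 without them. Fst and Sfrp1 are on the lists by which those cells were left out, so their fall is partly set by that choice, whereas Igf1 is not on them. Of 24 measured genes on the growth factor list 6 were higher and 3 lower, where all measured genes had 4.61% higher and 2.88% lower. Leaving out the cells holding fibroblast genes, 1 of 19 measured genes was higher and 2 lower. At 10 or more UMIs of Myh11 per cell, 3 of 22 were higher and 3 lower. Igfbp3, an IGF-binding protein, was lower at 13.4 and 69.3 CPM (0.193, 0.134 to 0.272), with a like ratio in the other cells (0.194). Ntf3, neurotrophin 3, was lower at 31.9 and 66.8 CPM (0.477), and was largely a gene of the smooth muscle cells, with 2.24 and 5.26 CPM in the others. Of 23 TGF-beta and BMP genes 3 were higher and 1 lower, the lower share being near that of all measured genes, and the list's median log2 ratio was 0.096. The lower one was Id2, a helix-loop-helix inhibitor that BMP signals induce, at 151 CPM after bleomycin and 404 CPM after saline (0.375, 0.335 to 0.419), while it stood at 60.0 and 60.2 CPM in the other cells.

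Cytokine genes rose in part. Of 20 measured inflammatory genes 5 were higher and 1 lower, where all measured genes had 4.61% higher and 2.88% lower. Lif, a cytokine of the interleukin 6 family, stood at 65.6 CPM after bleomycin and 5.01 CPM after saline (13.1, 7.34 to 25.8), Ccl7, a chemokine that draws monocytes, at 169 and 30.9 CPM (5.45), and Serpina3n, an acute-phase protease inhibitor, at 166 and 23.0 CPM (7.24) in 109 and 24 cells. Without the cells holding fibroblast genes, 10 of 18 measured genes were higher, with Lif at 18.5-fold and Serpina3n at 13.5-fold. Background cells had 42.7 and 4.41 CPM of Lif. The lower gene, Ccl11, rested on 12 and 11 cells and was higher without those cells, 2.23-fold.

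Interferon and antigen presentation genes moved the other way, with 1 of 18 higher and 5 lower, where all measured genes had 4.61% higher and 2.88% lower. The list's median log2 ratio was -0.75, against -1.04 in the other cells, where 0 of 17 were higher and 9 lower. The calls depended on the cells chosen. With at least 10 UMIs of Myh11 per cell, 3 were higher and 3 lower. Without the cells holding fibroblast genes, 0 of 16 measured genes were higher and 6 lower. Irf1, an interferon-induced transcription factor, was at 132 CPM after bleomycin and 307 CPM after saline (0.429, 0.380 to 0.485), and Gbp2, a GTPase of the same response, at 41.7 and 86.9 CPM (0.480). Gbp5, Igtp and Tap1 were the other lower genes. The higher gene, Ifit1, rested on 10 and 3 cells, with 64.6% of its bleomycin UMIs in 1 cell.

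Genes that respond to tissue digestion and heat were measured because they mark handling. Of 17, 0 were higher and 2 lower: the heat shock genes Hspa1a at 405 CPM after bleomycin and 1044 CPM after saline (0.388) and Hspa1b at 176 and 573 CPM (0.306). Fos stood at 3944 and 5131 CPM (0.769). The list's median was -0.43 in smooth muscle cells and -0.71 in the other cells, and its part in the other results was not tested. On the glucocorticoid and clock list 1 of 18 was higher and 5 lower, where all measured genes had 4.61% higher and 2.88% lower. Fkbp5, a glucocorticoid-induced chaperone, was higher at 23.9 and 7.10 CPM (3.37), while Sgk1, a kinase induced by the same hormone, was lower at 162 and 374 CPM (0.432) and stood at 382 and 354 CPM in the other cells.

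Proliferation genes were sparse. Of 12 measured cell cycle genes, Mki67, Birc5 and Pclaf were higher and 0 lower, but their UMIs came from few cells, 14, 15 and 9 after bleomycin and 8, 3 and 3 after saline. At 2000 UMIs, 5 of 315 bleomycin and 3 of 278 saline smooth muscle cells had 3 or more of these genes. Of 13 measured p53 targets, Phlda3 stood at 115 CPM after bleomycin and 45.1 CPM after saline (2.54) and Zmat3 at 16.6 and 7.10 CPM (2.33), and 0 genes were lower. All measured genes had 4.61% higher and 2.88% lower. Neither Phlda3 nor Zmat3 met the size rule with at least 10 UMIs of Myh11 per cell (1.79 and 1.63). Ratios were above 1 for 12 of the 13 genes, and at 2000 UMIs 47.6% of bleomycin and 36.3% of saline smooth muscle cells had 3 or more of them, against 52.4% and 36.7% of the other cells. The epithelial-gene cells of the bleomycin library held 305 and 36.0 CPM of Phlda3 and Zmat3, which any cell type can make.

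The 12 higher and 12 lower genes farthest from no change were, in the main, also changed outside smooth muscle cells or rested on few of them. Of the higher ones, Spp1, Ltbp2, Fst, Timp1, Sfrp1, Fbln2 and Hp are described above or below. Cthrc1, a secreted marker of fibrotic fibroblasts, stood at 108 and 0.418 CPM in 20 and 1 cells. Chl1 (21.0 CPM, at least 16.8-fold higher) and P4ha3, a collagen prolyl hydroxylase (14.3 CPM, at least 11.4-fold higher), had no UMI in saline smooth muscle cells, and Col7a1 and Slco2a1 had UMIs in 15 and 23 bleomycin cells. Hp, haptoglobin, stood at 58.9 and 3.76 CPM, and the epithelial-gene cells, a type that makes Hp itself, at 253 and 115 CPM, so free RNA cannot be read from them for this gene. Of the lower genes, Aqp5, Ager, Clic3, Cldn18, Hopx and Krt7 are known epithelial genes. Ager stood at 5.42 CPM after bleomycin and 128 CPM after saline, and 4 saline smooth muscle cells had 10 or more of its UMIs, against 0 bleomycin ones. Tpm3-rs7, a copy related to Tpm3 whose reads may be shared, stood at 1.59 and 39.3 CPM and was lower in the other cells as well (1.88 and 104 CPM). Cxcl9 rested on 1 and 3 cells, and Fez1 (2.87 and 22.1 CPM) was lower in the other cells too (0.160).

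A further set of 12 higher and 12 lower genes was taken from those that stood at least 2-fold above the other cells in the library where they were high. A change between treatments helps a gene to pass that limit: Bcr was 1.71-fold above the other cells after saline, and Ccdc3 1.40-fold, Arc 1.62-fold, Pou3f1 1.90-fold and Hspa1a 1.93-fold after bleomycin. Grp, gastrin-releasing peptide, a bombesin-like neuropeptide, was at 263 CPM after bleomycin and 30.1 CPM after saline (8.75, 6.87 to 11.3), in 94 and 25 cells. All other cells pooled had 3.20 and 0.855 CPM, and the background cells no UMI, while Grp was also higher in myofibroblast-gene cells, at 26.8 CPM after bleomycin and 2.82 CPM after saline (9.5). At 2000 UMIs 19% of bleomycin and 5.04% of saline smooth muscle cells had a Grp UMI. Sncg, gamma-synuclein, stood at 369 and 147 CPM (2.52, 2.23 to 2.85) in 223 and 115 cells, and Scara3, a scavenger receptor family member, at 153 and 40.5 CPM (3.77) in 194 and 72 cells. Slc7a2, a transporter of arginine and other cationic amino acids, was at 221 and 76.4 CPM (2.89), Bcr, a Rac GTPase-activating protein, at 127 and 34.7 CPM (3.68), and Gja4, the vascular gap junction protein connexin 37, at 16.6 and 3.34 CPM (4.96). Clu, clusterin, a secreted chaperone (chromosome 14, 65968483 to 65981547), stood at 972 and 409 CPM (2.37, 2.21 to 2.55). The epithelial-gene cells, which also make it, held 1306 CPM after bleomycin and 119 CPM after saline. Rtn4rl1, a Nogo receptor homologue, stood at 67.9 and 21.3 CPM (3.19). Without the cells holding fibroblast genes the 8 genes given here had ratios of 3.07 (Clu) or more. The other 4 higher genes were 9530034E10Rik (27.5), Olfr558 (6.67), Gprc5c (3.97) and Sdsl (3.81), each below 20 CPM after bleomycin. Outside smooth muscle cells, Slc7a2 was also higher in myofibroblast-gene cells (2.43), and Slc7a2, Clu, Scara3, Sncg and Gja4 were higher in pericyte-gene cells (2.77 to 4.89).

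The lower genes of this kind included Cpe, carboxypeptidase E, which trims peptide hormones, at 264 CPM after bleomycin and 822 CPM after saline (0.322, 0.296 to 0.349). The other cells had 19 and 11.3 CPM, and at 2000 UMIs 36.5% of bleomycin and 59.4% of saline smooth muscle cells had a Cpe UMI. Sost, sclerostin, a secreted Wnt inhibitor known best from bone (chromosome 11, 101962458 to 101967015), stood at 28.7 and 114 CPM (0.251, 0.196 to 0.320) in 26 and 73 cells, and at 0.0609 and 0.273 CPM in the other cells. Pcp4, a calmodulin regulator, was at 17.8 and 105 CPM (0.170) in 19 and 49 cells, and Vstm2b at 1.91 and 28.4 CPM (0.0673) in 6 and 50 cells. Pdlim4, an actin-associated LIM protein, was at 154 and 426 CPM (0.361, 0.323 to 0.402), whereas the other cells had 38.7 and 10.1 CPM, a ratio of 3.85. Ccdc3 (6.05 and 34.3 CPM), the early response gene Arc (4.46 and 29.7 CPM) and the transcription factor gene Pou3f1 (2.87 and 15.9 CPM) were lower too, as were 2310015A16Rik (1.91 and 12.1 CPM) and Rgs5, Hspa1a and Hspa1b, given above. In myofibroblast-gene cells Pcp4 (0.198), Arc (0.323) and both heat shock genes were lower as well, and Pdlim4 had a ratio of 0.645 there and 0.838 in pericyte-gene cells. Cpe stood at 76.2 CPM after bleomycin and 140 CPM after saline in myofibroblast-gene cells (0.544), and had a ratio of 1.03 in pericyte-gene cells. Below 10 CPM in myofibroblast-gene cells were Sost (0.102 and 5.64 CPM) and Vstm2b (1.12 and 4.70 CPM), while Ccdc3 had a ratio of 0.747. Cpe, Sost, Pcp4, Vstm2b, Pdlim4 and Ccdc3 also met the rule with at least 10 UMIs of Myh11 per cell and without the cells holding fibroblast genes.

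Among the smooth muscle cells themselves, the presence of an Itih4 UMI went with the level of other genes in both libraries. Itih4 had a UMI in 144 of 321 bleomycin cells (median 8516 UMIs, against 7255 in those without) and in 131 of 283 saline cells (8225 against 7018.5 UMIs), so depth differed a little as well. Since the rule read Itih4, and these genes were picked after their values were seen, this is a description. Cells with Itih4 had 451 CPM of Cpe and cells without it 112 CPM in the bleomycin library, and 1121 and 511 CPM in the saline library. Fabp4, a fatty acid carrier, stood at 194 and 30.7 CPM after bleomycin and 273 and 83.7 CPM after saline, and Sost at 53.9 and 8.10 CPM, and 153 and 73.4 CPM. Cells without Itih4 held more Ccl2, another such chemokine, with 66.7 CPM in those with Itih4 and 321 CPM in those without after bleomycin, and 46.6 and 205 CPM after saline. They also held more Tnc (124 and 359 CPM after bleomycin, 21.3 and 84.5 CPM after saline) and Notch3 (97.2 and 182 CPM, 54.0 and 106 CPM). At 2000 UMIs Cpe was detected in 64.8% of 88 bleomycin cells with Itih4 and 25.6% of 227 without, and in 80.9% of 68 and 52.4% of 210 saline cells. For Sost and Notch3 the intervals of the shares at that depth overlapped in both libraries. After bleomycin, Sost was detected in 7.95% (3.26% to 15.7%) of cells with Itih4 and 2.20% (0.719% to 5.07%) without. Notch3 was detected there in 19.3% (11.7% to 29.1%) and 31.7% (25.7% to 38.2%). Sost was detected in 19.1% (10.6% to 30.5%) of saline cells with Itih4 and 11.9% (7.85% to 17.1%) without, and Notch3 in 13.2% (6.23% to 23.6%) and 18.6% (13.6% to 24.5%).

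For 5 genes followed on both sides of this split, the ratio between treatments lay on the same side of 1 in cells with and without Itih4, and differences between both sides were not tested. Grp was 11.5-fold higher (8.67 to 15.6) in cells with Itih4 and 4.78-fold higher (3.01 to 7.94) in those without. Cpe had a ratio of 0.403 (0.366 to 0.443) with Itih4 and 0.219 (0.186 to 0.258) without, and Acta2 0.690 and 0.511. Clu was alike, at 2.46 and 2.58. Col1a1 was 2.47-fold higher in cells with Itih4 and 7.92-fold higher in those without, where 2245 CPM after bleomycin stood against 283 CPM after saline.

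**Figure D5:**
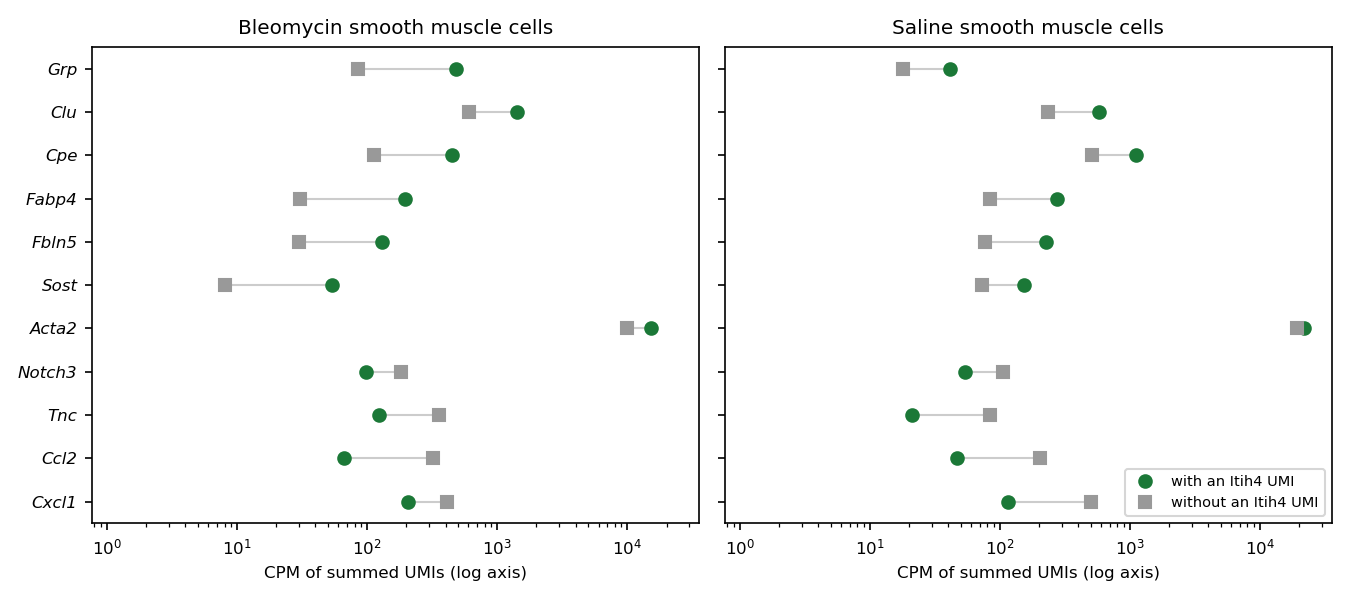
CPM of summed UMIs (log axis) in smooth muscle cells with an Itih4 UMI (green circles) and without one (grey squares), for the bleomycin library (left, 144 and 177 cells) and the saline library (right, 131 and 152 cells). The first 7 genes lie higher in cells with Itih4 and the last 4 (Notch3, Tnc, Ccl2, Cxcl1) higher in cells without it, in both libraries.

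Actc1 made a coarser split. It had no UMI in 65 bleomycin smooth muscle cells (20.2%) and 26 saline ones (9.19%). Cells without it held less Actg2, with 1014 CPM in cells with Actc1 and 537 CPM in cells without after bleomycin, and 1466 and 596 CPM after saline, and less Timp4 (83.0 and 21.0 CPM, 76.2 and 8.70 CPM). They held more Vcam1, an adhesion molecule for leukocytes, with 197 CPM in cells with Actc1 and 336 CPM in cells without after bleomycin, and 156 and 339 CPM after saline. Kitl, stem cell factor, Nox4, an oxidase, and Ncam1 also stood above in cells without Actc1 in each library. These genes too were picked after their values were seen.

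Markers of other cell types were low, with fibroblast genes the exception. No smooth muscle cell of the bleomycin library and 3 of the saline library had 3 or more of 13 epithelial genes at 2000 UMIs, and their summed level was 44.9 CPM after bleomycin and 193 CPM after saline, most of it Ager in the saline library. Epcam had 0 UMIs after bleomycin and 0.835 CPM after saline. Leukocyte genes summed to 19.8 and 18.8 CPM with Ptprc, which encodes CD45, at 0 in both, endothelial genes to 47.8 and 28.8 CPM with Cdh5 at 8.28 CPM after bleomycin and 0 after saline, and Schwann cell genes to 13.7 and 0.835 CPM. Fibrotic fibroblast genes summed to 4336 and 849 CPM (10 of 12 higher, 0 lower), adventitial fibroblast genes to 474 and 218 CPM (6 of 8 higher), and alveolar fibroblast genes to 1198 and 1462 CPM. Of the 9 measured alveolar genes 1 was lower: Inmt, at 63.7 CPM after bleomycin and 265 CPM after saline, with 96.8% of the saline UMIs in the 39 cells that held 3 or more alveolar genes. Inmt is itself on that list, so its concentration in these cells is partly set by their choice.

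Lepr, the gene that marks the lineage, stood at 23.3 CPM in bleomycin and 34.3 CPM in saline smooth muscle cells (0.679, 0.488 to 0.942), with a UMI in 56 and 61 cells, and did not meet the size rule. In the other cells it stood at 10.8 and 62.6 CPM, a ratio of 0.173. At 2000 UMIs 6.35% of bleomycin and 6.83% of saline smooth muscle cells had a Lepr UMI. None of the 8 measured genes of leptin receptor signalling was called. A smaller sum can come from fewer cells with the transcript or from less of it per cell, and at 1 or 2 UMIs per cell these cannot be told apart.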

How the data were processed

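The deposited files hold raw UMI counts per gene and cell barcode, made by the authors with the 3' v3 kit of 10x Genomics per the labels' protocols and with Cell Ranger 6.1.2 on mm10 per the submitters' processing notes. Cells with at least 500 genes and at most 10% mitochondrial UMIs were kept. The members, the 34 gene lists and the comparisons were chosen with earlier results of these data known.

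UMIs were summed over cells of a class and scaled to CPM (Python 3.11.15, numpy 2.4.6, scipy 1.17.1, pandas 2.3.3). CPM carry exact Poisson intervals, shares exact Clopper-Pearson intervals, and ratios exact conditional binomial intervals, all at 95%. They cover counting error only, since there is 1 library per treatment, and no p-value is given. A gene was called at 2-fold, with 10 CPM or more on the higher side and an interval clear of 1. The call was tried on simulated counts with known folds, drawn from the summed levels of these cells. The draws held no spread between cells or libraries, so how the call fares with such spread was not tested. Shares of cells were taken after thinning each cell to 2000 UMIs, leaving out shallower cells.

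Genes were named by rule: the 12 called genes per direction whose interval lay farthest from 1, over all genes and among genes at least 2-fold above the other cells in the library where they were high, with the genes of the rule, mitochondrial and ribosomal protein genes left out; the called genes of each list and up to 4 that were not; Lepr; and the 20 genes with the largest excess over other cells at 50 CPM or more in both libraries. Genes named from the Itih4 and Actc1 splits were chosen after their values were seen, as were single genes named from lists beyond this rule. The level that free RNA reaches was read from epithelial-gene cells, those with Epcam, at least 3 of 6 further epithelial genes and no Myh11 UMI (75 bleomycin and 28 saline cells), which overstate it for genes that epithelium makes itself. Doublets were scored with Scrublet in scanpy 1.11.5 (expected rate 7%) and were kept. TMM factors came from edgeR 4.0.16. Gene positions are GENCODE vM21 (32235 of 32285 identifiers matched), promoter windows RefSeq on GRCm38.p6, whose start sites can differ from GENCODE.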

Additional observations from a re-analysis of the deposited data

Results flagged for a closer look

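The following results had opposite directions in smooth muscle cells and in all other cells of the same libraries, and the difference between both kinds of cell was not tested. The thin filament list had a median log2 ratio, bleomycin over saline, of -0.32 in smooth muscle cells and 0.72 in the other cells pooled. Its summed level was below that of saline also in myofibroblast-gene cells (23074 CPM after bleomycin, 25680 CPM after saline) and pericyte-gene cells (11282 and 12921 CPM). That sum rests most on the list's abundant genes, and no list median was taken in these classes. Pdlim4, an actin-associated LIM protein, had a log2 ratio of -1.47 in smooth muscle cells and 1.94 in the other cells, and is the one of the 4 single genes here whose UMIs were many, in 173 bleomycin and 230 saline smooth muscle cells. Its ratio was 0.645 in myofibroblast-gene cells and 0.838 in pericyte-gene cells. Krt18, a keratin, had -3.04 in smooth muscle cells, with 2.23 CPM after bleomycin and 18.4 CPM after saline, and 1.27 in the other cells. Nostrin, which binds endothelial nitric oxide synthase, had 2.87 in smooth muscle cells, from 48 UMIs after bleomycin and 5 after saline, and -1.23 in the other cells. Scgb1a1, a secretory protein of airway epithelium, had 1.27 in smooth muscle cells, with 26.1 and 10.9 CPM, and -1.50 in the other cells. The epithelial-gene cells held 14469 CPM of Scgb1a1 after bleomycin and 16467 CPM after saline, and its part in the smooth muscle value was not tested.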

How the results depend on the processing

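The share of smooth muscle cells, the counts of called genes and the list medians were recomputed under each alternative, and 366 recomputed values stayed within 1.5 times of the count given in the text, within the counting interval of the share, or within the 95% order-statistic range of the list's genes. Of the ratios of single named genes, 3826 stayed within their counting interval, 1222 left it in the same direction or were not called to begin with, and the 17 that turned are given here. For a value that moved or turned, the cause was not tested unless the alternative itself changes the cells or genes counted. With at least 10 UMIs of Myh11 per cell, the shares were 1.94% in the bleomycin and 2.87% in the saline library, and the median log2 ratios were -0.16 for thin filament, 0.13 for calcium and ion channel and -0.53 for alveolar fibroblast genes. Cd34 turned to -0.037 and Ly6a to -0.079. With the rule read at 2000 UMIs per cell the shares were 2.52% and 2.76%, 227 genes were higher, and the medians were -0.015 for thin filament, -0.043 for proliferation, 0.51 for airway-leaning, -0.72 for alveolar fibroblast and 1.75 for fibrotic fibroblast genes. Cd34 turned to -0.00089, Mki67 to -0.84, Npr3 to -0.11 and Wnt5a to -0.13. Of the 370 higher and 231 lower genes, 191 and 168 were called again at 10 UMIs of Myh11, and 143 and 115 with the rule at 2000 UMIs.

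A further 3 choices of cells were made after seeing the data. Without cells holding fibroblast genes 325 genes were higher and 225 lower, of which 172 and 136 were among the calls in all smooth muscle cells. The medians were 0.20 for calcium and ion channel, 0.62 for fibrillar matrix, 0.21 for proliferation, 1.09 for inflammatory and 1.18 for fibrotic fibroblast genes, and Ccl11 turned to 1.15, Ereg to -0.043, Igfbp2 to -0.011, Npr3 to -0.79 and Serpinf1 to -1.79. The fibrotic fibroblast genes, and Serpinf1 of the adventitial list, were among the genes that chose the cells left out. Within cells with an Itih4 UMI the medians were 0.075 for calcium and ion channel, 0.25 for proliferation and 1.63 for fibrotic fibroblast genes, and Ly6a turned to -0.29. Within cells without one, 558 genes were higher and 358 lower, the medians were 1.30 for proliferation and -0.87 for airway-leaning genes, and Cd74 turned to 0.44. When only genes with UMIs in at least 10 cells, and at most 20% of them in 1 cell, were counted, 315 were higher and 212 lower.

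Without cells holding 3 genes of another class the alveolar fibroblast median was 0.27 and Inmt turned to 0.10, where the alveolar genes were among those that chose the cells left out. Without the 5% highest doublet scores Cd74 turned to 0.51. With cells weighted equally the medians were 0.17 for calcium and ion channel, 0.16 for proliferation and 1.84 for fibrotic fibroblast genes. At a minimum of 50 CPM, 105 genes were higher and 67 lower in smooth muscle cells, 195 and 226 in all other cells, 171 and 164 in myofibroblast-gene cells and 105 and 130 in pericyte-gene cells. With no minimum the counts were 631 and 420 in smooth muscle cells, 1917 and 1820 in all other cells, and 757 and 913 in myofibroblast-gene cells. With the level of the epithelial-gene cells subtracted, 667 genes were higher and 1138 lower, the medians were -1.08 for interferon, -1.06 for glucocorticoid and clock and -0.71 for leptin receptor genes, and Igfbp4 turned to -1.01 and Mmp2 to -0.77. Scaling by the median ratio or by TMM factors moved log2 ratios in smooth muscle cells by 0.05 and 0.04. No paired analysis was possible because there is 1 library per treatment. That limit holds for each comparison, and neither spread between mice nor an effect of batch can be seen. Genes with few UMIs, such as those of the cell cycle, rest on a handful of cells.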
